A study of Mus musculus with 18 samples.

Results

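The genes described here are 35 that act in homologous recombination and in the Fanconi pathway, and they were taken by symbol from a table of 55450 genes measured in mouse mammary tumors and normal mammary glands. By role they comprise 6 genes of the BRCA1 and BRCA2 complexes, 6 recombinase paralogs and annealing factors, 2 DNA translocases, 6 end resection genes, 9 genes of the Fanconi core complex, the 2 genes of the Fanconi ID2 clamp and 4 genes of junction processing. RNA was sequenced from 18 female mice of C57Bl/6 J background with 1 library per mouse: 5 tumors of each of 3 models, B1/P/Rbf, P/Rbf and B1/P, and 3 glands of wild type mice. B1/P/Rbf tumors arose in mice with the floxed alleles Brca1 fl/fl and Trp53 fl/fl and the transgene TgK18GT121 (Tg/+). B1/P tumors carried both floxed genes without the transgene, and P/Rbf tumors carried Trp53 fl/fl and the transgene with intact Brca1, so that all 15 tumors shared the Trp53 deletion. Cre came from an adenovirus with a CMV promoter injected through the nipple into the ducts of an abdominal gland of adult mice. Once Cre has acted, the transgene makes T121, which blocks pRb, p107 and p130. T121 is an N-terminal fragment of SV40 large T antigen, and its keratin 18 promoter limits it to epithelial cells. Stromal, immune and other cells in the bulk tumors that Cre did not reach keep intact alleles. Values below are CPM, counts expressed relative to library size after TMM scaling, and are given per mouse or as mean ± SD over mice. Values per mouse follow the order 208855, 208857, 208863, 209490 and 210906 for B1/P/Rbf, 225068, 225070, 246361, 255232 and 248662 for B1/P, 287842, 287845, 290860, 287822 and 290845 for P/Rbf and 330154, 330155 and 330156 for the glands.

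Homologous recombination repairs a double-strand break by copying an intact sister chromatid, and cells use it mainly in S and G2 phase, when a sister is present. The broken ends are first resected to single strands, BRCA1 with BARD1 and, through PALB2, BRCA2 then load the strand-exchange recombinase, and translocases, helicases and nucleases complete and resolve the exchange. The Fanconi pathway handles DNA cross-links: its core complex attaches ubiquitin to FANCD2 and FANCI, which starts the incision of the cross-link and hands the break to homologous recombination. Loss of BRCA1 or BRCA2 is a known cause of breast cancer, and many genes of both pathways are known targets of the E2F factors that the pRb family holds in check.

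Total expected counts per library ranged from 27661173 to 37794889. All 35 genes passed the filter on low counts, together with 19186 genes in all, and the lowest count of any of them in a tumor was 45, for Fancf. Levels were lower in the glands for some genes, such as Eme1 at 0.71 to 0.98 CPM. The tumors expressed epithelial markers, with Epcam between 260 and 1115 CPM, whereas Krt5 ranged from 0 to 854 CPM among the B1/P tumors. The glands held other tissue: 5 adipocyte markers summed to between 9182 and 13250 CPM and 5 skeletal muscle markers to between 21780 and 42840 CPM. In the tumors those sums were at most 172 CPM and 581 CPM, the latter in B1/P tumor 248662. The sum of 5 lymphocyte markers was 278 to 367 CPM in the glands and at most 7.79 CPM in the tumors. Trp53 fell from 61.5 ± 9.16 CPM in the glands to 14.7 ± 4.68 CPM in B1/P/Rbf, 14.8 ± 7.48 CPM in B1/P and 10.8 ± 1.96 CPM in P/Rbf tumors (edgeR adjusted p of at most 0.00037). In earlier work on these data 2 sets of libraries were inferred, which no label names, and the basis of that division is not given here. To the first belong the 5 B1/P/Rbf tumors with 225068, 225070 and 246361 of the B1/P model. The second holds the glands, the P/Rbf tumors and the remaining B1/P tumors, 255232 and 248662. Only B1/P tumors occur in both, so B1/P/Rbf and P/Rbf tumors cannot be compared within a set.

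The level of Brca1, the deleted gene, was measured first; it encodes the ubiquitin ligase subunit that promotes resection and recruits PALB2. Brca1 (chr11:101488764-101551955, GRCm38, minus strand) had 21.1, 27.8, 45.0, 27.9 and 26.9 CPM in the B1/P/Rbf tumors, 10.9, 21.03, 8.60, 27.9 and 8.13 CPM in the B1/P tumors and 44.9, 111, 66.5, 116 and 55.9 CPM in the P/Rbf tumors, whose Brca1 is intact. The glands had 5.75, 4.61 and 5.99 CPM. Every P/Rbf tumor exceeded every B1/P tumor, while B1/P/Rbf tumor 208863 was level with P/Rbf tumor 287842 and the other 4 B1/P/Rbf tumors lay below all P/Rbf tumors. By the RT-qPCR that the study's supplement describes, Brca1 expression was lost in the tumors with floxed Brca1, except that tumor 208863 had lost it only in part. The paper also reports recombination of the floxed alleles, found by PCR, in all tumors. Without 208863 the number of the 35 genes called was 0 in the comparison of B1/P/Rbf with P/Rbf tumors, and against B1/P tumors it was 10 for B1/P/Rbf and 12 for P/Rbf. Counts over the whole gene do not tell transcripts with and without the deleted exons apart, and RNA of cells that Cre did not reach is included. In bulk tissue, fewer cells that express a gene and less RNA per cell cannot be told apart.

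Whether deletion of Brca1 in tumors that all express T121 altered the other repair genes was asked by comparing B1/P/Rbf with P/Rbf tumors. None of the 35 genes was called at an adjusted p of 0.05 or less in edgeR's quasi-likelihood test, 0 higher and 0 lower, where 0.219% of all 19186 genes were called higher and 0.0625% lower. At an unadjusted p of 0.05 or less there was 1 gene, Brca1 itself, against 16.1% of all genes. With a term for the library sets there were 5, in edgeR beside 13.4% and in limma-voom beside 11.6% of all genes, and 0 were called. DESeq2 called Brca1 lower and none of the others, and limma-voom called 0. The sample ranges of the groups were apart for 0 of the 35 genes and for 3.02% of all genes. Log2 fold changes were positive for 18 genes and negative for 17, with a median of 0.03, beside −0.01 for all genes tested.

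Brca1 had the largest difference in this comparison, a log2 fold change of −1.41 (95% interval −2.17 to −0.65, adjusted p = 0.0903). Its adjusted p was 0.00823 with DESeq2 and reached 0.651 in limma-voom when a library-set term was added, the range of the alternatives. Without tumor 208863 its log2 fold change was −1.61 (adjusted p = 0.0861). No difference was called for the partners of BRCA1. Bard1, whose product forms the ligase with BRCA1, averaged 29.9 ± 7.00 CPM in the tumors with floxed Brca1 and 36.1 ± 19.2 CPM in those with intact Brca1, with a log2 fold change of −0.27 (interval −0.95 to 0.41). Palb2, the bridge from BRCA1 to BRCA2, had a log2 fold change of 0.30 (interval −0.30 to 0.89). For Brca2, the loader of the recombinase, it was 0.14 (interval −0.61 to 0.88). The next largest difference was that of Fancd2 at 0.58 (interval −0.29 to 1.44), and 1 B1/P/Rbf tumor, 209490, held 89.1 CPM of it, beside 26.0 to 36.8 CPM in the other 4. Without that tumor the Fancd2 difference was 0.12. The intervals leave room for differences of up to 1.44 on the log2 scale for Fancd2, and the narrowest was that of Nbn, which encodes a subunit of the break-sensing MRN complex (log2 fold change −0.14, interval −0.49 to 0.20).

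**Figure D1:**
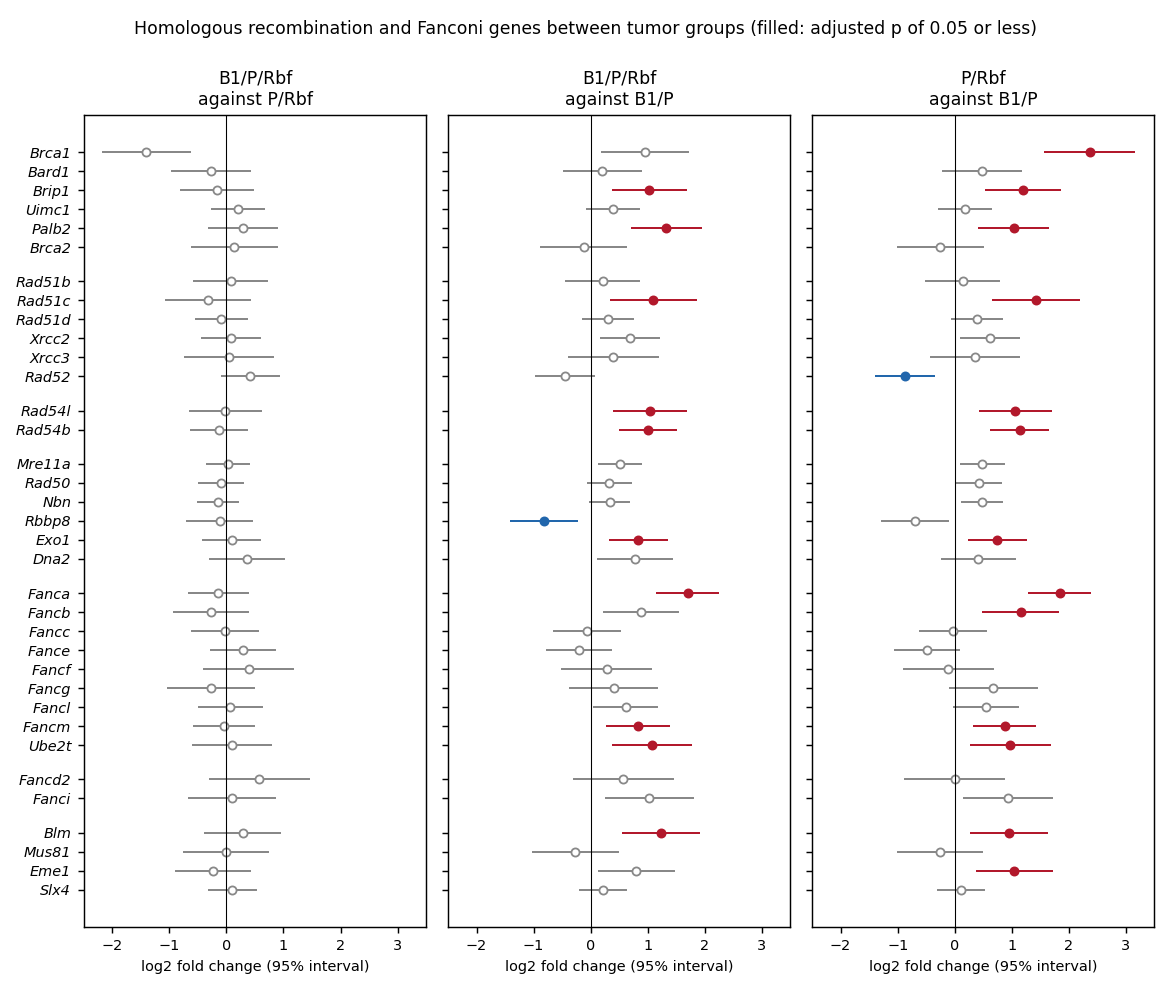
Log2 fold change (horizontal axis) of each of the 35 genes (vertical axis, grouped by role) in the 3 comparisons between tumor groups, with the 95% interval from edgeR; filled points were called at an adjusted p of 0.05 or less. No point is filled in the comparison of B1/P/Rbf with P/Rbf tumors, while 11 are filled against B1/P tumors for B1/P/Rbf and 14 for P/Rbf tumors, mostly at positive values.

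T121 was then compared with its absence in the models with floxed Brca1 and Trp53, B1/P/Rbf against B1/P. The genes called higher with T121 were Fanca, Palb2, Blm, Rad51c, Ube2t, Rad54l, Brip1, Rad54b, Exo1 and Fancm, with log2 fold changes from 0.83 to 1.70, and Rbbp8 was called lower. These are 10 and 1 of the 35 genes, where 7.36% of all genes were called higher and 9.29% lower. The log2 fold change was positive for 29 of the 35, with a median of 0.57 beside −0.06 for all genes tested. The sample ranges were apart for 4 genes, all higher in B1/P/Rbf tumors (Brip1, Palb2, Rad54b and Fanca), where 10.5% of all genes had ranges apart. The number called was 5 without B1/P/Rbf tumor 210906 or B1/P tumor 248662, 6 without B1/P tumor 225068 and 7 without B1/P/Rbf tumor 208857 or 209490. Without 208863, Rad51c (adjusted p = 0.0674) and Rbbp8 (0.108) were not called and Mre11a was (0.0484). The library-set term gave 12 calls in edgeR and 12 in limma-voom, of which 8 were among the 11: in both, Rad54l, Ube2t and Rbbp8 were lost and Fancb, Fancl, Fanci and Eme1 were gained. With the term 22 of the 35 had an unadjusted p of 0.05 or less in edgeR and 21 in limma-voom, beside 28.9% and 27.4% of all genes. Without it edgeR had 19, beside 31.3%. Within the first library set, in a comparison of 5 with 3 tumors, edgeR called 6. There 17 of the 35 had an unadjusted p of 0.05 or less, beside 25.3% of all genes. Brip1 (adjusted p = 0.07), Rad54b (0.0507) and Fancm (0.12) were among those that lost their call. Their log2 fold changes there were 1.22, 1.05 and 0.99, beside 1.03, 1.003 and 0.83 with all samples.

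P/Rbf tumors, which differ from B1/P tumors both in T121 and in Brca1, were compared with the same 5 B1/P tumors, so that the 2 comparisons share their controls. Called higher in P/Rbf tumors were Brca1, Fanca, Rad51c, Brip1, Fancb, Rad54b, Rad54l, Eme1, Palb2, Ube2t, Blm, Fancm and Exo1, with log2 fold changes from 0.75 to 2.37, and Rad52 was called lower. These are 13 and 1 of the 35 genes, where 8.43% of all genes were called higher and 10.8% lower. The log2 fold change was positive for 27 of the 35, with a median of 0.49 beside −0.05 for all genes. The ranges were apart for 5 genes, all higher in P/Rbf tumors (Brca1, Rad54b, Fanca, Mre11a and Nbn), of which the last 2 were not called, and for 8.86% of all genes. With the library-set term the number called was 3 in edgeR (Brca1, Rad54b and Fanca) and 2 in limma-voom (Brca1 and Fanca), and the other genes of the 14 lost their call. At an unadjusted p of 0.05 or less there were then 14 in edgeR and 13 in limma-voom, beside 26.7% and 25.4% of all genes. Without the term edgeR had 20, beside 34.5%. Within the second set, with only 2 B1/P tumors, edgeR called 0, and 9 of the 35 had an unadjusted p of 0.05 or less beside 21.1% of all genes. The log2 fold change was positive for 29 genes there, with a median of 0.56. The number called was 9 without P/Rbf tumor 287822 and 11 without B1/P tumor 248662, the library with muscle markers.

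Among the BRCA1 and BRCA2 complexes, 2 of 6 genes were called higher in B1/P/Rbf and 3 in P/Rbf than in B1/P tumors. Palb2 (chr7:122107262-122132985) had 16.6, 19.2, 19.1, 27.1 and 23.3 CPM in the B1/P/Rbf tumors and 6.55, 7.91, 8.27, 12.7 and 6.62 CPM in the B1/P tumors, with no overlap. In the P/Rbf tumors it had 13.5, 25.9, 10.1, 22.8 and 13.5 CPM, and 1 of them, 290860, lay below B1/P tumor 255232. The log2 fold changes relative to B1/P were 1.33 (standard error 0.29, adjusted p = 0.00536) for B1/P/Rbf and 1.03 (standard error 0.28, adjusted p = 0.0188) for P/Rbf tumors. The first was called in every alternative that tested the gene, with adjusted p from 6.36e-05 to 0.0195, and the second in 4 of 8, from 0.00244 to 0.376.

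Brip1 (chr11:86058138-86201193), which encodes a helicase that binds BRCA1, had 13.7, 15.2, 6.11, 21.5 and 8.67 CPM in the B1/P, against 21.8, 22.7, 24.7, 31.5 and 32.7 CPM in the B1/P/Rbf and 19.6, 38.8, 27.3, 40.7 and 23.1 CPM in the P/Rbf tumors. The lowest B1/P/Rbf tumor lay just above the highest B1/P tumor, 255232. In B1/P/Rbf and P/Rbf tumors its log2 fold changes were 1.03 (adjusted p = 0.0276) and 1.197 (adjusted p = 0.0124). The call for B1/P/Rbf tumors was lost, with an adjusted p of up to 0.0639, without B1/P/Rbf tumor 209490 or 210906 or without B1/P tumor 246361 or 248662. Relative to B1/P tumors, Brca1 itself rose in P/Rbf tumors by 2.37 on the log2 scale (standard error 0.37, adjusted p = 0.000845). In the comparison of B1/P/Rbf with B1/P tumors, which both have floxed Brca1, its log2 fold change was 0.96 (adjusted p = 0.0755). DESeq2 and limma-voom called it (adjusted p from 0.0463 to 0.118 over the alternatives), as did the fit without B1/P tumor 255232 (0.0215).

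Brca2 (chr5:150522630-150570329) varied most among the B1/P tumors of all 35 genes. It had 19.9, 27.2, 40.5, 112 and 52.4 CPM in the B1/P, against 36.1, 38.3, 43.1, 65.8 and 48.4 CPM in the B1/P/Rbf and 33.2, 39.7, 52.0, 52.8 and 33.2 CPM in the P/Rbf tumors. B1/P tumor 255232, at 112 CPM, was 5.63 times B1/P tumor 225068 and exceeded every other sample. Its log2 fold changes relative to B1/P were −0.12 (interval −0.86 to 0.62) and −0.26 (interval −1.0003 to 0.49). Both turned positive without 255232, to 0.41 and 0.27, and neither was called. Within the library sets the values were 0.70 in the first, for B1/P/Rbf tumors, and −0.94 in the second, for P/Rbf tumors, where 255232 is 1 of 2 B1/P tumors. Bard1 and Uimc1, which encodes the ubiquitin-binding subunit RAP80 of a BRCA1 complex, were not called in either comparison, with log2 fold changes between 0.19 for Uimc1 and 0.48 for Bard1, both in P/Rbf tumors.

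**Figure D2:**
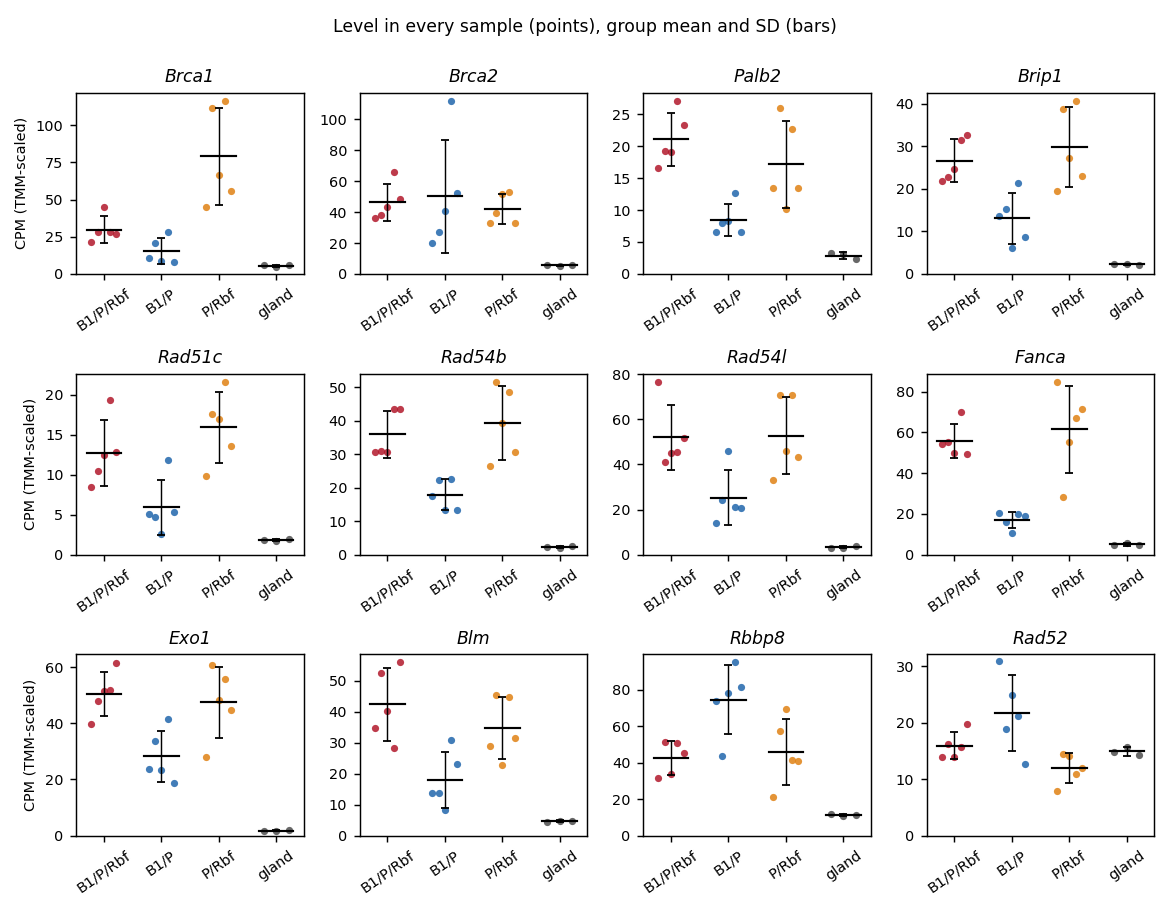
CPM after TMM scaling (vertical axes, from 0) of 12 of the genes in each of the 18 samples (points), by group, with the mean and SD of each group. The 5 B1/P tumors (blue) lie below all B1/P/Rbf tumors (red) for Palb2, Brip1, Rad54b and Fanca, Brca2 is at 112 CPM in 1 B1/P tumor, and the mean of the B1/P tumors is the highest of the 4 groups for Rbbp8 and Rad52.

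Of the recombinase paralogs and annealing factors, which assist or back up strand exchange, 1 of 6 was called higher in B1/P/Rbf tumors than in B1/P tumors. P/Rbf tumors had 1 called higher and 1 called lower. Rad51c (chr11:87376645-87404954), shared by both complexes of the paralogs, had 5.12, 4.77, 2.64, 11.8 and 5.33 CPM in the B1/P, against 8.48, 10.5, 12.4, 19.4 and 12.9 CPM in the B1/P/Rbf and 9.89, 17.6, 16.9, 21.7 and 13.7 CPM in the P/Rbf tumors. B1/P tumor 255232, at 11.8 CPM, lay within both T121 groups and the other 4 B1/P tumors lay below them. Relative to B1/P tumors it changed on the log2 scale by 1.102 (adjusted p = 0.0414) and 1.43 (adjusted p = 0.0113). The call in B1/P/Rbf tumors was lost in 9 of 18 fits without 1 sample, with an adjusted p of up to 0.107: those without B1/P/Rbf tumor 208857, 208863, 209490 or 210906, without B1/P tumor 225068, 225070, 246361 or 248662, or without gland 330155. Rad51b, Rad51d, Xrcc2 and Xrcc3, which encode the other paralogs, had log2 fold changes between 0.21 (Rad51b) and 0.69 (Xrcc2) in B1/P/Rbf tumors and between 0.14 and 0.61 for the same genes in P/Rbf tumors. None of these was called by edgeR, where Xrcc2 had adjusted p of 0.0596 and 0.0833. DESeq2 called Xrcc2 in both comparisons, at 0.0185 and 0.0373, the lowest of alternatives that reached 0.211 and 0.367. It was called by edgeR in the first comparison without B1/P/Rbf tumor 208855, B1/P tumor 246361 or P/Rbf tumor 287842 (lowest adjusted p = 0.0339).

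Rad52 (chr6:119902698-119922828), an annealing protein used in single-strand annealing, went the other way. It had 31.0, 19.0, 24.9, 21.1 and 12.7 CPM in the B1/P, against 14.0, 16.2, 13.9, 15.7 and 19.9 CPM in the B1/P/Rbf and 7.97, 14.5, 14.1, 10.9 and 11.9 CPM in the P/Rbf tumors. In P/Rbf tumors it fell by 0.87 on the log2 scale (standard error 0.24, adjusted p = 0.0185), and B1/P tumor 248662 was the only B1/P tumor within the P/Rbf range. The call was lost, with an adjusted p of up to 0.0588, without B1/P tumor 225068 or P/Rbf tumor 287842, and in 4 of the 8 alternatives. In B1/P/Rbf tumors the log2 fold change was −0.45 (adjusted p = 0.209).

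Both DNA translocases, motor proteins that remodel the recombinase filament and drive branch migration, were called higher in each T121 group. Rad54b (chr4:11558922-11615805) had 17.6, 22.3, 13.4, 22.8 and 13.4 CPM in the B1/P, against 30.7, 30.9, 30.8, 43.6 and 43.6 CPM in the B1/P/Rbf and 26.5, 51.7, 39.4, 48.7 and 30.6 CPM in the P/Rbf tumors, and every T121 tumor exceeded every B1/P tumor. On the log2 scale it rose by 1.003 (standard error 0.24, adjusted p = 0.00852) and 1.14 (standard error 0.24, adjusted p = 0.00414). Both calls held without any 1 sample, with adjusted p of at most 0.0235 and 0.0114. Part of Rad54b overlaps Fsbp on the same strand, so reads of the shared stretch may be divided between them.

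Rad54l (chr4:116094264-116123690) had 14.1, 24.3, 45.8, 21.02 and 20.8 CPM in the B1/P, against 76.5, 40.8, 45.1, 45.6 and 51.6 CPM in the B1/P/Rbf and 33.2, 70.7, 45.7, 70.6 and 43.3 CPM in the P/Rbf tumors. Only B1/P tumor 246361 overlapped the B1/P/Rbf range. The log2 fold changes were 1.04 (adjusted p = 0.0239) and 1.06 (adjusted p = 0.0199). The first call was lost without B1/P/Rbf tumor 208855, which had the highest level, or without B1/P tumor 225068, 255232 or 248662, with an adjusted p of up to 0.0619. It was also lost with the library-set term (log2 fold change 0.89, adjusted p = 0.104 in edgeR; 0.98, adjusted p = 0.0645 in limma-voom) and within the first set (0.93, adjusted p = 0.171), with adjusted p from 0.00662 to 0.171 over the alternatives. With the term the second became 0.053 in edgeR and 0.0763 in limma-voom.

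Of the 6 end resection genes, Exo1 was called higher in each T121 group and Rbbp8 was called lower in B1/P/Rbf tumors. Exo1 (chr1:175880581-175913489), a nuclease of long-range resection, had 23.9, 33.7, 23.6, 41.5 and 18.7 CPM in the B1/P, against 39.7, 47.9, 51.7, 51.8 and 61.7 CPM in the B1/P/Rbf and 28.0, 60.7, 48.2, 55.9 and 44.7 CPM in the P/Rbf tumors. Only B1/P tumor 255232 reached the B1/P/Rbf range. It rose on the log2 scale by 0.84 (adjusted p = 0.0226) and 0.75 (adjusted p = 0.0348). The first call was lost, at up to 0.0548, without B1/P/Rbf tumor 210906 or B1/P tumor 225068, 246361 or 248662. The second was lost in 7 of the 8 alternatives, with adjusted p from 0.0153 to 0.398, and, at up to 0.0762, without B1/P tumor 225068, 246361 or 248662 or P/Rbf tumor 287845, 290860, 287822 or 290845.

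Rbbp8 (chr18:11633276-11745221) encodes CtIP, which starts resection together with the MRN complex and binds BRCA1. It had 73.9, 43.8, 78.1, 95.2 and 81.3 CPM in the B1/P, against 31.3, 51.2, 33.6, 50.6 and 45.1 CPM in the B1/P/Rbf and 21.3, 57.1, 69.3, 41.2 and 40.6 CPM in the P/Rbf tumors. In 4 of 5 B1/P tumors it exceeded every B1/P/Rbf tumor, and B1/P tumor 225070 lay among them. Rbbp8 fell by 0.81 on the log2 scale in B1/P/Rbf tumors (standard error 0.27), with an adjusted p of 0.0491 that was just inside the threshold. Of the alternatives only DESeq2 called it, over a range of 0.027 to 0.223. Of the 18 fits without 1 sample only those without B1/P tumor 225070, P/Rbf tumor 287842 or P/Rbf tumor 290860 did, with an adjusted p of up to 0.108 in the others. In P/Rbf tumors the log2 fold change was −0.70 (adjusted p = 0.0788). Of the 8 alternatives 0 called it there, with adjusted p from 0.0514 to 0.252. Without B1/P tumor 225070 or P/Rbf tumor 290860 edgeR called Rbbp8 lower in P/Rbf tumors (lowest adjusted p = 0.0337).

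Mre11a, Rad50 and Nbn encode the 3 subunits of the MRN complex, and Dna2 encodes the nuclease and helicase of the second long-range resection route. Mre11a had 43.4, 59.7, 39.4, 62.1 and 51.4 CPM in the B1/P, against 60.5, 66.5, 58.5, 77.5 and 103 CPM in the B1/P/Rbf and 71.0, 67.6, 81.7, 62.6 and 75.5 CPM in the P/Rbf tumors. Nbn had 28.3, 19.96, 24.6, 19.1 and 22.6 CPM in the B1/P, against 25.6, 26.6, 30.6, 34.3 and 27.4 CPM in the B1/P/Rbf and 29.9, 35.1, 34.0, 29.4 and 31.4 CPM in the P/Rbf tumors. In both genes all P/Rbf tumors lay above all B1/P tumors by a narrow margin, and neither was called by edgeR. Log2 fold changes of P/Rbf relative to B1/P tumors were 0.49 for Mre11a (adjusted p = 0.0642) and 0.48 for Nbn (adjusted p = 0.0503). DESeq2 called both there, with an adjusted p of 0.0346 for Mre11a and 0.00732 for Nbn, where the alternatives reached 0.551 and 0.208. Fits of edgeR without 1 sample also called Mre11a (without B1/P/Rbf tumor 210906 or B1/P tumor 255232, lowest adjusted p = 0.041) and Nbn (without B1/P tumor 225068, P/Rbf tumor 287842 or gland 330155, lowest adjusted p = 0.0315). Mre11a was also called by DESeq2 in B1/P/Rbf tumors (adjusted p = 0.0249, up to 0.155 over the alternatives), where edgeR gave 0.057 with all samples and called it in 4 of 18 fits without 1 sample, those without B1/P/Rbf tumor 208855 or 208863 or B1/P tumor 225070 or 255232 (lowest adjusted p = 0.0425). Rad50 and Dna2 were not called by edgeR with all samples either, and in B1/P/Rbf tumors their log2 fold changes were 0.33 (adjusted p = 0.228) and 0.77 (adjusted p = 0.094). Without B1/P/Rbf tumor 208855 or B1/P tumor 246361 edgeR called Dna2 there (lowest adjusted p = 0.0388).

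The Fanconi core complex held the gene with the largest difference between B1/P/Rbf tumors and those of the B1/P model. Fanca (chr8:123268300-123318576), a subunit of the ligase that modifies FANCD2 and FANCI, had 54.4, 55.3, 49.9, 69.9 and 49.4 CPM in the B1/P/Rbf tumors and 20.4, 16.1, 10.8, 19.8 and 18.9 CPM in the B1/P tumors. The P/Rbf tumors had 84.9, 28.1, 55.5, 67.2 and 71.7 CPM and the glands 4.61, 5.66 and 4.77 CPM. The 4 sample ranges stood in the order gland, B1/P and then the T121 groups, without overlap between gland, B1/P and either T121 group. The log2 fold change was 1.70 for B1/P/Rbf (standard error 0.25, 95% interval 1.16 to 2.23, adjusted p = 0.000623) and 1.84 for P/Rbf tumors (standard error 0.26, interval 1.301 to 2.38, adjusted p = 0.000385). Between the T121 groups it was −0.14 (interval −0.66 to 0.38).

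Every alternative that tested Fanca called it in B1/P/Rbf tumors, with adjusted p from 4.65e-09 to 0.0109. Within the first library set its log2 fold change was 1.85 (standard error 0.28). In P/Rbf tumors 7 of 8 alternatives called it, and within the second set, with 2 B1/P tumors, it was 1.69 with a standard error of 0.43 (edgeR adjusted p = 0.0779; over the alternatives 2.15e-10 to 0.0779). Fanca overlaps Zfp276, as Rad54l overlaps Lrrc41, Mre11a Ankrd49 and Eme1 both Lrrc59 and Mrpl27, on the opposite strand, and whether counting used strand was not given in the sources used here.

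Fancm and Ube2t of this role were called higher in each T121 group and Fancb in P/Rbf tumors. Fancm (chr12:65075603-65132058), a translocase that anchors the complex to DNA, had 16.5, 9.72, 7.77, 17.2 and 10.7 CPM in the B1/P, against 16.7, 25.4, 19.7, 18.8 and 29.3 CPM in the B1/P/Rbf and 16.6, 23.1, 19.3, 30.4 and 23.8 CPM in the P/Rbf tumors. Ube2t (chr1:134962565-134974162), the ubiquitin-conjugating enzyme of the pathway, had 9.22, 12.2, 21.04, 10.7 and 10.2 CPM in the B1/P, against 11.7, 26.0, 23.99, 30.5 and 41.2 CPM in the B1/P/Rbf and 15.8, 20.2, 23.8, 37.4 and 27.2 CPM in the P/Rbf tumors. In both genes 1 or more B1/P tumors lay within the T121 ranges. For Fancm the log2 fold changes were 0.83 (adjusted p = 0.0336) and 0.87 (adjusted p = 0.0247), and for Ube2t 1.07 (adjusted p = 0.0328) and 0.97 (adjusted p = 0.0455).

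These calls were less stable than that of Fanca. Fancm lost the first, at up to 0.0871, without B1/P/Rbf tumor 208857 or 210906 or B1/P tumor 225070, 246361 or 248662, and the second, at up to 0.0607, without B1/P tumor 246361 or P/Rbf tumor 287822. Ube2t lost the first, at up to 0.0931, without B1/P/Rbf tumor 208857, 209490 or 210906 or B1/P tumor 225068, 225070, 255232 or 248662. Only 3 of 8 alternatives called it there, with adjusted p from 0.00943 to 0.21, and it was lost with the library-set term (0.128 in edgeR, 0.181 in limma-voom) and within the first set (0.21). It kept the second in 6 of 18 fits without 1 sample, those without B1/P/Rbf tumor 208855 or 210906, B1/P tumor 246361, P/Rbf tumor 287842 or 287845 or gland 330155, and reached 0.111 in the rest. Of the 8 alternatives only DESeq2 called Ube2t in P/Rbf tumors, with adjusted p from 0.0191 to 0.145.

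Fancb (chrX:164980592-164997272), a subunit of the catalytic module of the core complex, had 5.53, 5.04, 5.20, 9.94 and 7.25 CPM in the B1/P, against 9.11, 11.1, 13.0, 16.2 and 11.3 CPM in the B1/P/Rbf and 9.95, 9.74, 11.3, 26.2 and 16.1 CPM in the P/Rbf tumors. B1/P tumor 255232, at 9.94 CPM, lay within both T121 ranges and the other 4 B1/P tumors lay below them. The log2 fold changes were 0.88 (adjusted p = 0.0598) and 1.15 (adjusted p = 0.0166). Without P/Rbf tumor 287822, which had the highest level, the latter became 0.0512. The library-set term gave a call in B1/P/Rbf tumors (log2 fold change 1.208, adjusted p = 0.0333 in edgeR, from 0.0206 to 0.095 over the alternatives) and removed that in P/Rbf tumors (0.77, adjusted p = 0.224, from 0.00133 to 0.415). Fancc, Fance, Fancf, Fancg and Fancl, further subunits of the complex, were not called in either comparison. Their log2 fold changes lay between −0.20 (Fance) and 0.62 (Fancl) in B1/P/Rbf tumors and between −0.48 (Fance) and 0.68 (Fancg) in P/Rbf tumors. Fancl was called in B1/P/Rbf tumors with the library-set term, at 0.96 in edgeR (adjusted p = 0.0352, beside 0.0289 in limma-voom). Fancg was high in 1 B1/P tumor, 246361, and was called higher in each T121 group without it, with log2 fold changes of 1.06 (adjusted p = 0.00624) and 1.33 (adjusted p = 0.00177).

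The ID2 clamp, the substrate of the core complex, had 0 of 2 genes called in either comparison by edgeR. Fancd2 had a log2 fold change of 0.57 (interval −0.29 to 1.44) in B1/P/Rbf and −0.0027 (interval −0.86 to 0.86) in P/Rbf tumors. The former was 0.11 without B1/P/Rbf tumor 209490 and 0.92 without B1/P tumor 255232. Fanci had 1.03 (adjusted p = 0.0602) and 0.93 (adjusted p = 0.0787). Its unadjusted p was 0.05 or less in both comparisons, and DESeq2 and limma-voom called it in B1/P/Rbf tumors. With the library-set term it was called there by edgeR too, at 1.65 (adjusted p = 0.0105, from 0.01 to 0.0799 over the alternatives), and had 0.33 (adjusted p = 0.649) in P/Rbf tumors. Fits of edgeR without 1 sample called Fanci in P/Rbf tumors (without B1/P tumor 255232, adjusted p = 0.0301). In B1/P/Rbf tumors those without 255232 or P/Rbf tumor 287822 called it (lowest adjusted p = 0.0236).

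Of the 4 junction processing genes, 1 was called higher in B1/P/Rbf and 2 in P/Rbf tumors. Blm (chr7:80454733-80535119), the helicase that dissolves double Holliday junctions, had 13.6, 13.7, 8.39, 30.9 and 23.1 CPM in the B1/P, against 34.7, 52.4, 40.2, 28.4 and 56.0 CPM in the B1/P/Rbf and 28.8, 45.5, 22.9, 44.6 and 31.6 CPM in the P/Rbf tumors. B1/P tumor 255232 overlapped both T121 groups, and 248662 overlapped the P/Rbf range. In B1/P/Rbf tumors it rose by 1.24 on the log2 scale (standard error 0.32, adjusted p = 0.0135), a call that held without any 1 sample (adjusted p of at most 0.0355). For P/Rbf tumors the rise was 0.95 (adjusted p = 0.0424), lost at up to 0.0876 without B1/P/Rbf tumor 208863, B1/P tumor 225068, 225070 or 246361 or P/Rbf tumor 287845, 287822 or 290845. With the library-set term in edgeR the values were 1.83 (adjusted p = 0.00233) and 0.36 (adjusted p = 0.514).

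Eme1 (chr11:94644996-94653964), the partner of the MUS81 nuclease that cuts junctions, had 6.10, 9.24, 5.20, 17.3 and 6.59 CPM in the B1/P, against 13.8, 17.3, 13.3, 18.9 and 14.2 CPM in the B1/P/Rbf and 15.0, 22.2, 23.1, 19.1 and 12.4 CPM in the P/Rbf tumors. B1/P tumor 255232, at 17.3 CPM, lay far above the other 4. The log2 fold changes were 0.80 (adjusted p = 0.0839) and 1.05 (adjusted p = 0.0269), and the latter was lost, at up to 0.0606, without B1/P tumor 225068, 246361 or 248662 or P/Rbf tumor 287845 or 290860. The library-set term in edgeR gave a call in B1/P/Rbf tumors (1.179, adjusted p = 0.0334, from 0.0242 to 0.153 over the alternatives) and removed that in P/Rbf tumors (0.62, adjusted p = 0.321, from 0.00519 to 0.48). Mus81 and Slx4, the scaffold of the junction nucleases, were not called: their log2 fold changes in B1/P/Rbf tumors were −0.26 (interval −1.003 to 0.47) and 0.22 (interval −0.19 to 0.62).

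The promoters of the 35 genes were searched for letters of cell cycle motifs in RefSeq windows of 300 bases on GRCm38.p6, 250 before and 50 after the annotated start; 27 of the 35 genes had an entry. TTTCCCGC, TTTGGCGC, TTTCGCGC and TTCCCGCC, spellings of the site that E2F factors bind, were searched on both strands. At least 1 of them was found in 6 of the 27 genes (22.2%: Bard1, Brca2, Rad51c, Fancb, Fancg and Fancm) and in 4.00% of 27025 genes with an entry. CCAAT, the motif bound by NF-Y and common in promoters of cell cycle genes, was found on either strand in 17 of the 27 genes (63.0%) and in 41.1% of all. TTTGAA, the letters of a cell cycle homology element, was in 4 of the 27 (14.8%) and in 20.2% of all. TTTCCCGC and TTCCCGCC can overlap, as they do in Rad51c. The following stretches, 5′ to 3′ on the strand of the gene, show E2F-type matches in 5 of the 6 genes, in capitals, upstream of the start except in Rad51c, where they run across it, with flanking bases in lower case; where the capitals read GCGGGAAA or GGCGGGAA the motif is on the other strand.
Bard1, chr1:71103154-71103201, minus strand: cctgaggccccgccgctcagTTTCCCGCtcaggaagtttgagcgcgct
Brca2, chr5:150522433-150522480, plus strand: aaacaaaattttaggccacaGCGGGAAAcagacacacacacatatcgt
Fancb, chrX:164980399-164980446, plus strand: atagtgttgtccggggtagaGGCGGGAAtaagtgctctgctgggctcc
Fancm, chr12:65075529-65075576, plus strand: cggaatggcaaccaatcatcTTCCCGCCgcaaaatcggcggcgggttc
Rad51c, chr11:87404952-87404980, minus strand: ggcccacaatcccccgcgagGGCGGGAAA

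Of the 6 genes with E2F-type letters, Rad51c and Fancm were called higher in each T121 group, Fancb in P/Rbf tumors, and Bard1, Brca2 and Fancg, whose sequence is not shown, in neither. Fanca, the gene with the largest difference in B1/P/Rbf tumors, had none of the E2F-type letters in its window and held CCAAT at positions −50 and −23 from the start. Brip1 and Ube2t, both called higher in each T121 group, held 3 CCAAT matches each, with starts between −99 and −34 in Brip1, all on the other strand (ATTGG), and between −124 and −40 in Ube2t. Genes not called between tumor groups held as many or more, with 6 in Xrcc3 and 3 in Fancf. These 3 promoters are shown with CCAAT or ATTGG in capitals.
Fanca, chr8:123318577-123318646, minus strand: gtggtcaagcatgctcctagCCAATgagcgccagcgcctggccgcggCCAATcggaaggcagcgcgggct
Brip1, chr11:86201203-86201312, minus strand: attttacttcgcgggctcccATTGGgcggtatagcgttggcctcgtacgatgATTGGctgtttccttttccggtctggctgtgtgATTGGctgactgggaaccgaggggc
Ube2t, chr1:134962421-134962549, plus strand: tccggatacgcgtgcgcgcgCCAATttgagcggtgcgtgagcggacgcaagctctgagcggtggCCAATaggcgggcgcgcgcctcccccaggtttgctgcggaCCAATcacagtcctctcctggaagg
No binding was measured in these samples, and a match of letters is a description of the sequence.

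Each tumor group was also compared with normal gland, and most of the 35 genes were higher in tumors. In B1/P/Rbf tumors 24 were called higher and 1 lower, where the shares of all genes were 17.1% and 20.0%. The B1/P tumors had 22 called higher and 1 called lower, beside 16.8% and 16.9% of all genes. For P/Rbf tumors it was 25 and 1, beside 17.4% and 20.3%. A term for the library sets gave 26, 24 and 27 calls in edgeR in the same order, beside 25, 23 and 26 without it. At an unadjusted p of 0.05 or less the numbers with the term were 29, 25 and 27, beside 34.1%, 38.9% and 47.8% of all genes. Without it they were 27, 24 and 27, beside 46.3%, 44.1% and 46.8%. The 3 comparisons share the 3 glands. The median log2 fold change of the 35 genes was 1.96 in B1/P/Rbf, 1.49 in B1/P and 2.03 in P/Rbf tumors, beside 0.05, 0.12 and 0.05 for all genes tested. Library sizes without TMM raised the medians of all genes to 0.42, 0.47 and 0.33 and those of the 35 genes to 2.33, 1.85 and 2.31.

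Exo1 had the largest rise in every tumor group, from 1.72 ± 0.198 CPM in the glands to 50.5 ± 7.92 CPM in B1/P/Rbf, 28.3 ± 9.18 CPM in B1/P and 47.5 ± 12.6 CPM in P/Rbf tumors. Its log2 fold changes were 4.88, 4.04 and 4.79 (adjusted p of at most 4.39e-07). Eme1, near 1 CPM in the glands, had log2 fold changes of 4.16, 3.36 and 4.40. The translocases rose by 3.97, 2.96 and 4.10 on the log2 scale for Rad54b and by 3.98, 2.94 and 4.00 for Rad54l. Bard1 and Brca2, not called between tumor groups, rose by 3.74, 3.53 and 4.01 and by 3.04, 3.17 and 2.91. For the ID2 clamp the values were 3.65, 3.07 and 3.07 for Fancd2 and 3.65, 2.61 and 3.55 for Fanci. Brca1 was also higher than in gland in the models where it was floxed, by 2.45 in B1/P/Rbf and 1.49 in B1/P tumors, and by 3.86 in P/Rbf tumors.

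Rad51d (chr11:82876434-82890614), a paralog of the recombinase, was the gene called lower in each tumor group. It had 42.6, 41.4 and 39.2 CPM in the glands, 14.5, 18.2, 12.5, 11.3 and 9.77 CPM in the B1/P, against 13.5, 16.8, 21.8, 13.2 and 16.5 CPM in the B1/P/Rbf and 16.1, 12.9, 19.8, 18.3 and 19.8 CPM in the P/Rbf tumors. Every tumor lay below every gland, with log2 fold changes of −1.33, −1.63 and −1.24 (standard error 0.24 each, adjusted p = 0.000352, 6.66e-05 and 0.000608). Mus81 also had lower means in the tumors, between 14.9 and 17.9 CPM beside 24.8 ± 1.69 CPM in the glands, and was not called by edgeR with all 18 samples (smallest adjusted p = 0.157). Every B1/P/Rbf tumor lay below every gland, and the fit with only those groups called Mus81 lower.

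Uimc1, Xrcc3, Fancc, Fance, Fancf, Fancg, Fancl and Mus81 were called by edgeR's test with all 18 samples in none of the 6 comparisons. All of these but Uimc1 were called in a comparison with gland under at least 1 alternative, such as DESeq2 for Fancf and Fancg, limma-voom for Xrcc3 and Fancl and library sizes without TMM for Fancc and Fance. Of the 9 Fanconi core genes 4, 3 and 4 were called higher than in gland in the B1/P/Rbf, the B1/P and the P/Rbf tumors, whereas both translocases and both clamp genes were called in all 3. In the glands the RNA of fat, muscle and lymphocytes makes up part of the total, and its part in these differences was not tested.

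**Figure D3:**
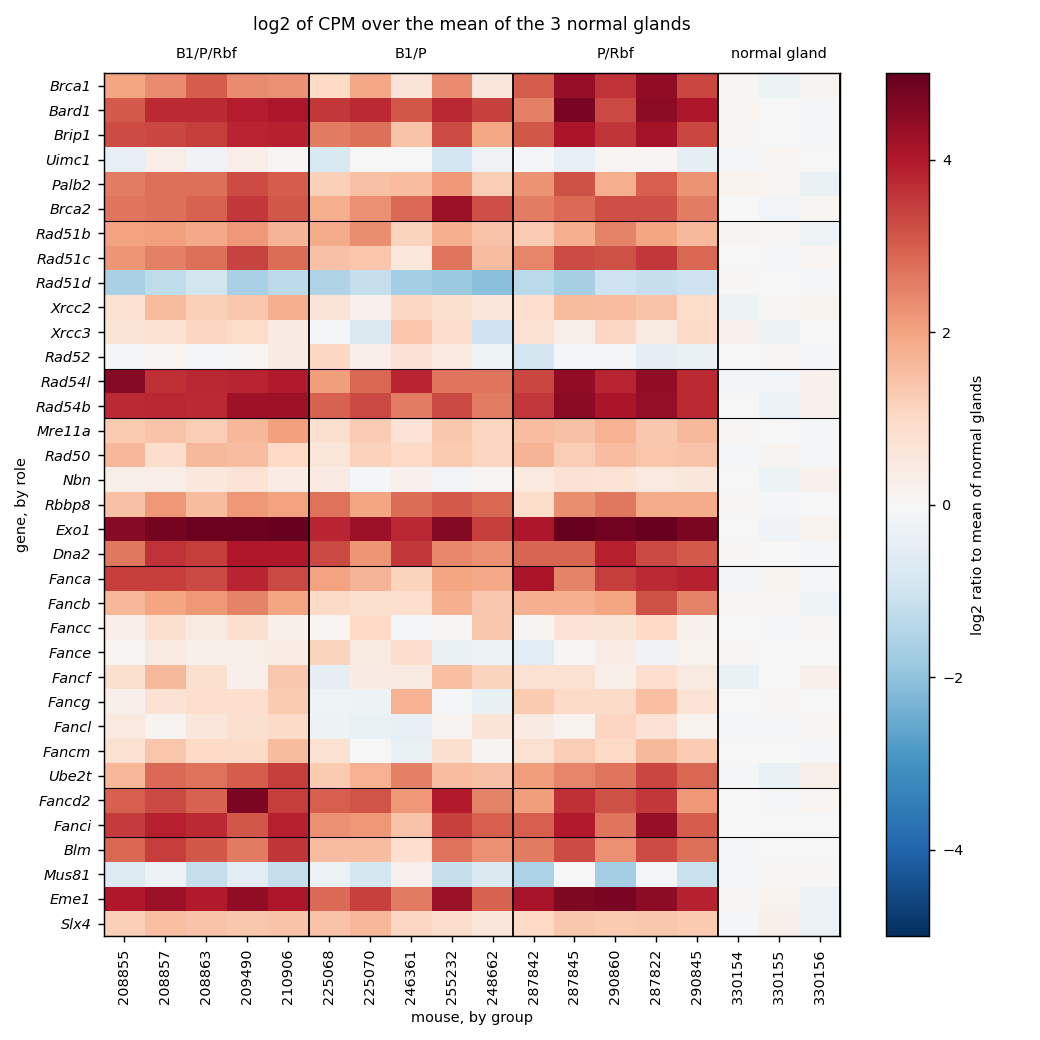
Log2 ratio of the CPM of each of the 35 genes (vertical axis, lines separate the roles) to its mean over the 3 glands, in each of the 18 mice (horizontal axis, by group). Exo1, Eme1, Rad54l and Rad54b are strongly raised (red) in every tumor, Rad51d is lowered (blue) in every tumor, and Fancc, Fance, Fancf, Fancg and Fancl, the core genes that edgeR called in no comparison with all samples fitted, lie closer to 0.

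Levels were also compared between genes per kilobase of merged exons. Merged exons join those of all annotated transcripts of a gene, and their length ran from 1691 bases for Fancf to 13643 for Brca2. The ranks therefore depend on the annotation, and which transcripts were expressed was not tested. In B1/P/Rbf tumors they ran from 1.32 CPM per kilobase for Rad51b to 14.3 for Rad50, with Mre11a at 12.3 and Nbn at 11.4 next below it. The same 3 MRN genes led in B1/P tumors (11.4, 8.64 and 9.04 for Rad50, Mre11a and Nbn) and in P/Rbf tumors (15.3, 12.1 and 12.6). In the glands the highest per kilobase were Rad51d at 11.1, Uimc1 at 9.91 and Nbn at 8.34, and the lowest was Exo1 at 0.204. Brca1 in P/Rbf tumors reached 9.25 CPM per kilobase and Brca2 there 3.09.

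Cell cycle genes differed between the same groups. The mean log2 CPM of the 35 genes was 4.68 ± 0.17 in B1/P/Rbf, 4.07 ± 0.18 in B1/P, 4.66 ± 0.25 in P/Rbf tumors and 2.69 ± 0.02 in glands. Of the B1/P tumors, 255232 was highest at 4.38 and lay within the P/Rbf range, and the other 4 lay between 3.94 and 4.05, below all T121 tumors. For 12 S phase genes (the Mcm2 to Mcm7 helicase genes, Pcna and others) the means were 7.50 ± 0.09, 6.39 ± 0.41, 7.34 ± 0.22 and 4.47 ± 0.08, and 255232 was again the highest B1/P tumor, at 7.04. For 10 mitosis genes they were 6.97 ± 0.20, 6.31 ± 0.30, 7.33 ± 0.52 and 2.94 ± 0.07. Relative to B1/P tumors, 9 of the 12 S phase genes and 2 of the 10 mitosis genes were called higher in B1/P/Rbf tumors, and 8 and 6 in P/Rbf tumors. Of all genes, 7.36% were called higher in the former and 8.43% in the latter. Mki67, a marker of cycling cells, had 682 ± 258, 402 ± 155 and 800 ± 520 CPM in the B1/P/Rbf, the B1/P and the P/Rbf tumors and was not called between them (smallest adjusted p = 0.0763). Between the groups with T121, 0 genes of either cycling list were called by edgeR, with 2 of 12 and 3 of 10 at an unadjusted p of 0.05 or less, beside 16.1% of all genes. The sample ranges were apart for 4 of the 12 S phase genes, all higher in B1/P/Rbf tumors, and for 0 of the 10 mitosis genes, beside 3.02% of all genes. Median log2 fold changes were 0.30 and −0.42, and 9 of the 10 mitosis genes had negative values. The part of cycling in the differences of the repair genes was not tested.

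Markers of cell types also differed. The mean log2 CPM of 6 fibroblast markers was 7.38 ± 0.45 in B1/P tumors, beside 5.68 ± 1.14 in B1/P/Rbf and 5.87 ± 0.73 in P/Rbf tumors, with summed levels of 1614 to 7300, 544 to 3044 and 958 to 2888 CPM. Of the 6, 1 was called lower in B1/P/Rbf and 2 in P/Rbf tumors than in B1/P tumors, and without B1/P/Rbf tumor 208855 the former was 4. Of 6 epithelial markers, 2 were called higher in B1/P/Rbf and 4 in P/Rbf tumors, among them Krt18, with a log2 fold change of 1.68 and 2.74. The basal keratins Krt5 and Krt14 had log2 fold changes of the other sign, −5.08 and −2.75 in B1/P/Rbf and −2.57 and −0.52 in P/Rbf tumors. They were not called with all samples. In B1/P/Rbf tumors 1 of the 6 was called lower without B1/P/Rbf tumor 209490, B1/P tumor 225070 or P/Rbf tumor 290860. For P/Rbf tumors 1 was called lower without 290860. Over all 6 the mean log2 CPM was 7.56 ± 1.184 in B1/P/Rbf, 7.91 ± 1.19 in B1/P and 8.52 ± 0.77 in P/Rbf tumors. The 5 macrophage markers all had negative log2 fold changes in both T121 groups relative to B1/P tumors, with medians of −0.53 and −1.09, and 0 and 1 of them were called, the 1 being lost without B1/P tumor 225070 or P/Rbf tumor 287842 or 290845. Their summed levels were 118 to 442 CPM in B1/P/Rbf, 196 to 900 CPM in B1/P and 146 to 302 CPM in P/Rbf tumors. Of 5 skeletal muscle markers, 3 were called lower in B1/P/Rbf and 4 in P/Rbf tumors, with summed levels of 1.42 to 581 CPM in B1/P tumors (median 6.20), 4.51 to 22.5 CPM in B1/P/Rbf (median 14.9) and 0.92 to 3.88 CPM in P/Rbf tumors (median 2.87). Without B1/P tumor 248662, the B1/P/Rbf tumors had 1 of the 5 called higher and 1 lower, and the P/Rbf tumors had 0 called. Of 5 adipocyte markers, 1 was called higher in B1/P/Rbf and 1 lower in P/Rbf tumors, with sums of 3.53 to 172 CPM, beside 23.6 to 45.5 CPM in B1/P and 2.76 to 12.5 CPM in P/Rbf tumors. Without 248662 these were 2 and 1, and without B1/P/Rbf tumor 208855 they were 0 and 1. The part of these differences in those of the repair genes was not tested.

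**Figure D4:**
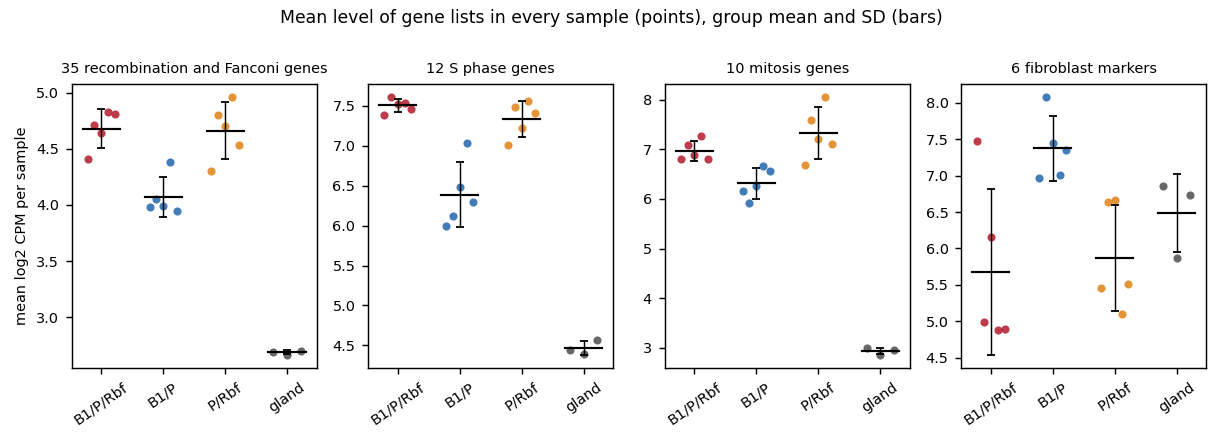
Mean log2 CPM (vertical axes, which differ between panels) of the 35 genes, of the S phase list, of the mitosis list and of 6 fibroblast markers in each sample (points), by group, with the mean and SD. In the first 3 panels the B1/P tumors lie mostly below both T121 groups and the glands lie lowest, and in the fibroblast panel the B1/P tumors have the highest mean.

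A list of 37 related genes, which includes accessory factors, replication protein A and further Fanconi-associated proteins, was tallied in the same way. With Brca1 deletion compared in T121 tumors, edgeR called 0 of 37, with 3 at an unadjusted p of 0.05 or less, while DESeq2 called 1 and limma-voom called 0. Relative to B1/P tumors 10 rose and 1 fell in B1/P/Rbf tumors, while 9 rose and 0 fell in P/Rbf tumors, where 7.36% and 9.29% of all genes were called higher and lower in the former and 8.43% and 10.8% in the latter. The 11 genes of the first comparison became 9 with the library-set term in edgeR and 4 within the first library set, and the 9 of the second became 5 and, within the second set, 3. The largest differences in B1/P/Rbf tumors were those of Mad2l2 (log2 fold change 1.66, adjusted p = 0.00135), a subunit of the translesion polymerase zeta and of shieldin, which limits resection, and of Gen1 (1.48, adjusted p = 0.000469), a Holliday junction resolvase. In P/Rbf tumors they were those of Cenps (2.16, adjusted p = 0.000474), which pairs with FANCM on DNA, and Mad2l2 (1.86, adjusted p = 0.000741). Mad2l2 had 9.54, 10.4, 7.54, 9.34 and 9.65 CPM in the B1/P, against 33.3, 22.4, 42.9, 33.9 and 14.1 CPM in the B1/P/Rbf and 27.01, 23.6, 40.9, 26.4 and 50.7 CPM in the P/Rbf tumors, so that every B1/P tumor lay below every T121 tumor. Relative to gland 15, 8 and 18 of the 37 were called higher and 4, 4 and 3 lower, with the B1/P/Rbf tumors given first, the B1/P tumors next and the P/Rbf tumors last. The shares of all genes were 17.1%, 16.8% and 17.4% higher and 20.0%, 16.9% and 20.3% lower. With the library-set term in edgeR the 19, 12 and 21 related genes called became 12, 13 and 21.

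Within each model the tumors differed among themselves. Among the B1/P tumors 255232 had the highest level of 18 of the 35 genes, among the B1/P/Rbf tumors 208855 had the lowest level of 19, and among the P/Rbf tumors 287842 had the lowest of 17. Without 255232 the numbers of genes called against B1/P tumors were 13 for B1/P/Rbf and 15 for P/Rbf tumors. The ratio of the highest to the lowest tumor of a group ran from 1.25 (Slx4) to 3.52 (Ube2t) in B1/P/Rbf, from 1.48 (Nbn) to 5.63 (Brca2) in B1/P and from 1.19 (Nbn) to 4.68 (Bard1) in P/Rbf tumors. In the 3 glands it was at most 1.55, for Ube2t.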

How the data were processed

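RNA of 15 mammary tumors and 3 normal glands was sequenced as stranded, paired-end, pooled mRNA libraries. The authors deposited expected counts per gene, made with RSEM 1.3.0 after trimming with cutadapt 1.18, per the labels, and 5.61% of the values were not whole; they were rounded here. The methods name a human reference, but all 55450 identifiers match mouse GENCODE M21 (GRCm38). Counts were fitted with edgeR 4.0.16 (quasi-likelihood, TMM scaling with factors of 0.788 to 1.11, filterByExpr with a minimum count of 10, groups only, all 18 samples) in R 4.3.3. Genes with p of 0.05 or less after Benjamini-Hochberg adjustment over 19186 genes were called. DESeq2 1.42.0, limma 3.58.1, other filters and scalings, a library-set term and leaving out each sample were alternatives, and the fits within a library set were chosen after seeing the data. The members and lists were chosen with earlier results of these data known. Genes named with values in every sample are those called between tumor groups, Brca2, and those whose sample ranges were apart. With 1 library per mouse, p-values measure the spread between mice. A check of the tests on simulated data is not reported here, and no value above rests on it.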

Additional observations from a re-analysis of the deposited data

Results flagged for a closer look

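Outliers were sought on the log2 scale in 105 sets of 5 tumors (35 genes in 3 groups). There 3 values stood apart from the other 4 of their group by more than Dixon's 95% critical value of 0.710, and chance marks about 1 set in 20. On the CPM scale further values exceed it, such as Ube2t in B1/P tumor 246361 and Palb2 in B1/P tumor 255232. Fancg was at 55.7 CPM in B1/P tumor 246361, and the other 4 B1/P tumors had 12.9 to 16.2 CPM. Fancd2 was at 89.1 CPM in B1/P/Rbf tumor 209490, beside 26.0 to 36.8 CPM in the others. Slx4 was lowest in P/Rbf tumor 287842, at 33.5 CPM beside 41.3 to 42.7 CPM.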

How the results depend on the processing

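Limits are the 5 tumors per group, the library sets that coincide with the B1/P/Rbf and P/Rbf groups, and bulk RNA. Counts of the 35 genes called that moved by more than 1.5 times were as follows, and the cause was not tested except that a filter at a log2 CPM of 6 kept only 2 of the 35 genes. For B1/P/Rbf against P/Rbf tumors, 0 were called and DESeq2 called 1. For B1/P/Rbf against B1/P tumors, 11 were called, and 17 with DESeq2, 0 under the stricter filter, 6 with only the groups compared and 6 within the first library set. For P/Rbf against B1/P tumors, 14 were called, and 0 under the stricter filter, 4 with only the groups compared, 3 and 2 with the library-set term in edgeR and limma-voom and 0 within the second set. Against gland, 25, 23 and 26 were called (B1/P/Rbf, then B1/P, then P/Rbf tumors) and 2 in each under the stricter filter. Leaving out each sample gave 0 to 0, 5 to 13 and 9 to 15 in the comparisons between tumors, in the order above, and 25 to 26, 21 to 24 and 25 to 27 against gland. No direction of a called value reversed. The share of all genes called is given here only for the fit of all 18 samples by group. No paired analysis was possible because the groups share no mouse numbers.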

Other observations

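Genes within 1 Mb of Fancg, Fancd2 and Brca2 were examined after the high single tumors had been seen. Around Fancg, 39 of 48 tested neighbours had their highest B1/P level in tumor 246361 too, with a median log2 difference from the other B1/P tumors of 1.76, where 19.9% of all genes were highest in that tumor. Around Fancd2, 21 of 38 neighbours were highest in B1/P/Rbf tumor 209490, with a median log2 difference of 0.85, beside 22.4% of all genes. Around Brca2, 7 of 15 neighbours were highest in B1/P tumor 255232, with a median log2 difference of 0.89, beside 19.9% of all genes. Neighbouring genes are not independent of each other, and no DNA copy number was analysed here.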
